A study of Sus scrofa with 80 samples.

Results

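The genes described here encode the collagens and the other structural proteins of the extracellular matrix. They were chosen by symbol, from the gene names printed on the array: collagen chains, laminin chains, fibrillins, fibulins, lysyl oxidase relatives, tenascins, fibronectin, periostin, SPARC and its relative, and the proteoglycans lumican, decorin, biglycan, fibromodulin and versican. The rule found 61 genes among the 23722 genes that were tested. Of these, 27 are collagen chains and 10 are laminin chains. COL4A3BP, a lipid transfer protein, and LOXHD1, a gene named for a protein domain, were matched by their spelling only and are kept in every count. Symbols such as COL1A1 and ELN were not analysed here.

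RNA from healthy tissue of Göttingen minipigs, a small laboratory breed of pig, was hybridized to 80 one-color arrays. Cerebellum, hypothalamus, cortex, liver, kidney, spleen and bone marrow came from 1 male and 1 female at each of 1 week, 4 weeks, 2 months and 4 months, and from 1 male at 2 years. For testis there was 1 male sample at all 5 ages, and for ovary 1 female sample at the ages below 2 years. The kidney of the 2-year male was measured on 8 arrays, which were averaged, so that 72 tissue samples remained besides 1 array of renal pelvis. No pig was treated and no strain other than this one was sampled. The labels do not say which tissues came from the same pig, and the 2-year male, unlike the others, was raised for most of its life at another site on another diet. The 16 arrays of that age also lie on 2 slides of their own, so age, housing and slide cannot be told apart at 2 years. Below, "younger" stands for 1 and 4 weeks and "older" for 2 and 4 months, and a unit is 1 sex at 1 of these ages, averaged over the 7 tissues.

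Collagen chains wind into triple helices. Fibrillar collagens assemble into the cables that give tissue its tensile strength, FACIT collagens sit on the surface of these fibrils, and laminins form the sheet under epithelia and around vessels. Fibrillins build microfibrils, lysyl oxidases cross-link collagen and elastin, and small leucine-rich proteoglycans bind fibrils and set their spacing. In growing organs this material is made mostly by fibroblasts and related stromal cells, in bone by osteoblasts, whereas the adult brain holds little fibrillar collagen outside its vessels and meninges.

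All levels are log2 intensities after background correction and quantile normalization, so that a difference of 1 is 2-fold, and they were compared only within a gene, since probes differ in brightness. A detection limit was taken from the negative control spots of each array (their 95th percentile) and ranged from 2.34 to 3.45. All 72 samples exceeded it for 33 of the 61 genes, and 36 samples or fewer did for 12 genes. LAMA1, LAMB2, LOXL2, LUM and COL10A1 were above it in at most 6 samples, so little can be seen of these genes here. The probes of a gene had means within 1 log2 unit of each other for 44 genes and over 4 units apart for 6. Marker lists were highest in the labelled tissue, with no overlap with other tissues, for liver, kidney, cerebellum, testis and ovary, and the neuronal list was highest in the 3 brain regions. A lymphoid list was between 8.26 and 10.05 in spleen and reached 9.46 in bone marrow. The hypothalamic peptide list, with 4 genes measured, had mean levels between 5.70 and 6.48 in the 8 hypothalamus samples up to 4 months and between 5.35 and 6.81 in the other 6 tissues, and 2 of its 4 genes were nowhere well above background in hypothalamus. In the sample labelled bone marrow at 2 years, the neutrophil granule list (MPO and 3 others) had a mean of 6.79, against 11.1 to 12.4 in the other 8 bone marrow samples.

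The first question was whether these genes change after the first weeks of life. Over the mean of 7 tissues, 17 of the 61 genes fell (27.9%) and 4 rose (6.56%) from the younger to the older units, with n = 4 units in each period and limma adjusted p under 0.05. Over all genes 6.52% fell and 5.71% rose. The median change of the 61 genes was -0.11, beside 0.02 for all genes. The 17 that fell included the fibrillar collagens COL1A2, COL3A1 and COL11A1, the FACIT collagens COL21A1, COL16A1, COL9A2 and COL14A1, the microfibril gene FBN2, and the proteoglycans VCAN, FMOD and BGN. In these bulk samples, fewer cells of a type and less RNA per cell cannot be told apart, and with 1 pig of each sex at an age the p-values measure only the spread between these units.

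COL1A2 encodes the second chain of type I collagen, the main collagen of skin, bone and tendon. Averaged over 7 tissues, its level was 11.09 in the female and 11.43 in the male at 1 week, and 10.12 and 11.06 at 4 weeks. At 2 months it was 9.14 and 9.27, and at 4 months 8.35 and 9.09. All 4 older units were below all 4 younger ones. The mean fell from 10.92 ± 0.56 to 8.96 ± 0.41 (SD, n = 4 units each), a log2 change of -1.96 ± 0.28 (SE) or 3.9-fold, with a limma adjusted p of 0.0058. The mean change was downward in all 7 tissues, and in 6 of them every older sample lay below every younger one.

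The course differed in shape between tissues, as the plot of COL1A2 and FBN2 by tissue and age shows. In cerebellum, the mean COL1A2 level of the male and the female stepped down from 9.22 (1 week) through 8.11 (4 weeks) and 6.89 (2 months) to 5.59 (4 months), and the 2-year male was at 5.23. Each age was below the one before it. In liver the 1-week samples were at 11.51 and 11.48 and the 4-week mean was 11.42, followed by 10.02, 8.59 and, at 2 years, 7.92, so that both early ages were alike and the lower values came from 2 months on. Kidney went from 12.70 through 11.28, 10.21 and 9.76 to 8.70. In spleen the highest mean, 12.67, was at 4 weeks rather than at 1 week (11.77), and the 2-year male, at 11.45, was above the 10.71 of 4 months.

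Bone marrow was the tissue in which the COL1A2 periods overlapped. The 1-week samples were at 15.52 and 15.97, where both arrays had saturated spots, so that these values may be too low. At 4 weeks the female was at 11.14 and the male at 14.78, at 2 months the female was at 12.63 and the male at 13.31, and at 4 months the female was at 11.59 and the male at 14.60. Samples high in COL1A2 were also high in a list of 8 bone and osteoblast markers (IBSP, SP7 and others), whose mean was 8.23 and 8.86 at 1 week, 6.10 in the female and 7.57 in the male at 4 weeks, and 6.29 and 8.10 at 4 months. The part of bone tissue in the marrow values was not tested. The bone marrow change, -1.32 ± 1.01 (SE), did not pass the test (limma adjusted p = 0.59).

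**Figure D1:**
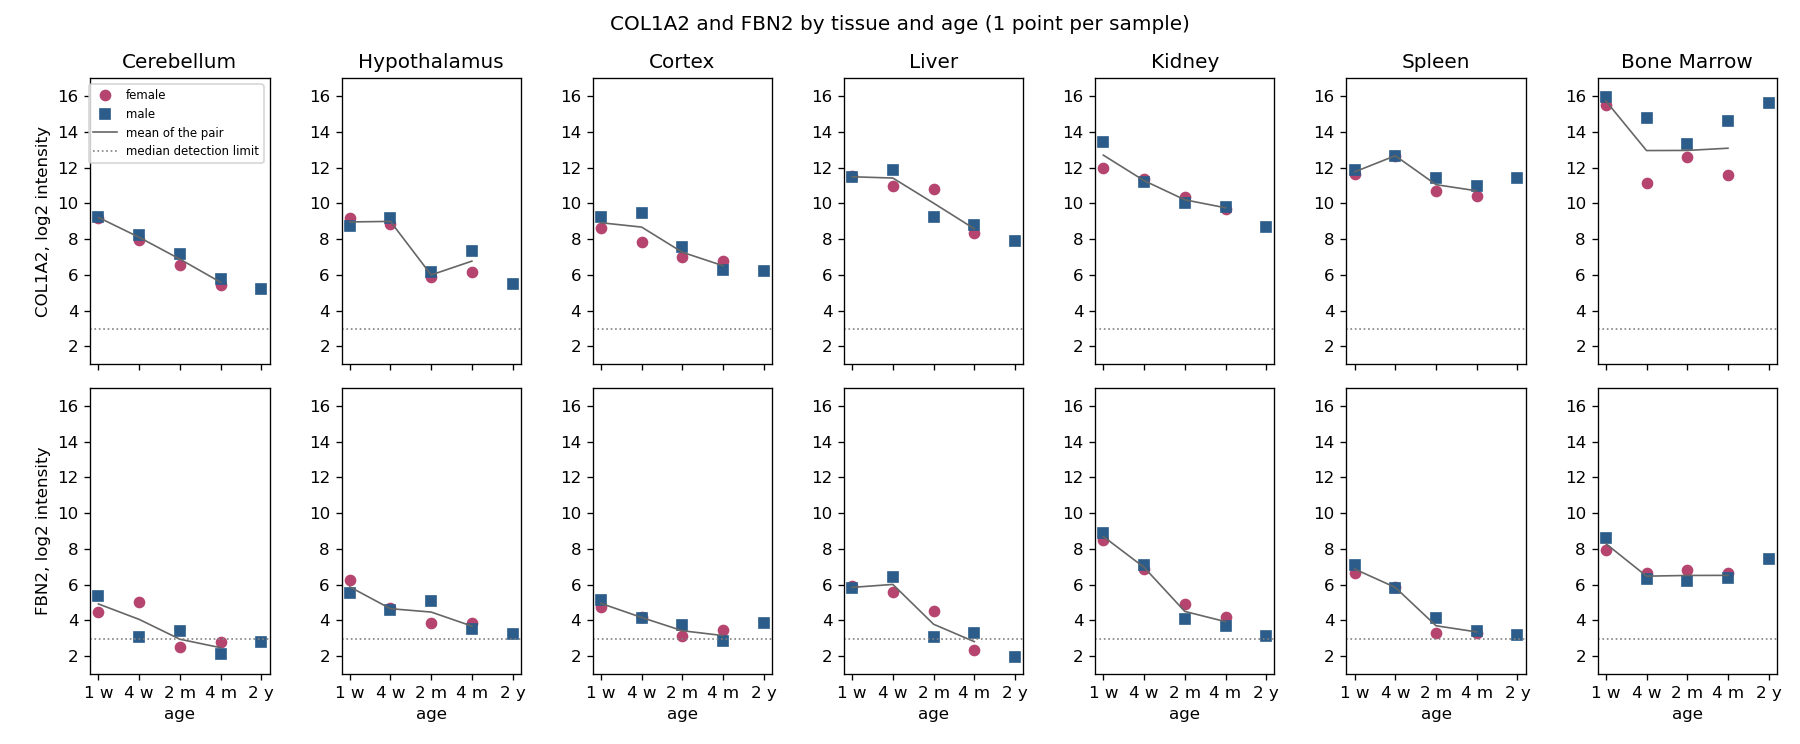
Log2 intensity of COL1A2 (top) and FBN2 (bottom) in each of 7 tissues by age, with 1 point per sample (circles female, squares male), a line through the mean of the male and female up to 4 months and the median detection limit of 2.95 dotted. COL1A2 in cerebellum steps down from 9.22 to 5.59, and FBN2 in kidney falls from 8.70 to 3.93, while bone marrow keeps the highest levels of both genes at 4 months.

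COL3A1, the chain of type III collagen, which accompanies type I in soft and growing tissue, fell from 9.60 ± 0.41 to 8.32 ± 0.33 (n = 4 units each), a log2 change of -1.28 or 2.43-fold (limma adjusted p = 0.0098). Its unit levels were 9.63 and 10.11 at 1 week, 9.10 and 9.56 at 4 weeks, 8.71 and 8.09 at 2 months, and 8.01 and 8.46 at 4 months, female first. The younger and older units did not overlap. COL11A1, a chain of the type XI collagen that nucleates fibrils, fell by 0.61 on the log2 scale (limma adjusted p = 0.03), but it was well above background in only 12 of 28 younger and 11 of 28 older samples. Its change was -1.90 in bone marrow, where the level was 9.33 and 10.01 at 1 week and between 5.29 and 7.75 afterwards up to 4 months, and this bone marrow change did not pass the test. COL11A2, a partner of COL11A1 in type XI collagen, changed by -0.63 with a limma adjusted p of 0.069. COL5A3, a chain of type V collagen, went the other way, from 7.87 ± 0.05 to 8.35 ± 0.22 (log2 change 0.48, limma adjusted p = 0.018). Of the 8 fibrillar chains measured, 3 fell and 1 rose, and their median change was -0.55 beside 0.02 for all genes.

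FBN2, which encodes fibrillin-2, a microfibril protein best known from embryonic tissue, had the largest mean change of the set together with COL1A2, although with a background offset of 50 its change was smaller than that of COL1A2. Its unit levels were 6.36 and 6.64 at 1 week and 5.56 and 5.36 at 4 weeks, then 4.15 and 4.24 at 2 months and 3.80 and 3.61 at 4 months, female first. No older unit reached the lowest younger one. The mean fell from 5.98 ± 0.62 to 3.95 ± 0.29 (n = 4 each), which is -2.03 ± 0.27 (SE) or 4.08-fold (limma adjusted p = 0.0047). FBN2 was well above background in 25 of 28 younger samples and in 8 of 28 older ones, so many older values lay near the detection limit. The size of the change moved with the treatment of such dim signals, from -0.86 with a background offset of 50 to -2.61 in the deposited table, and it passed the test in each case. The other fibrillins did not pass the test. FBN3 changed by 0.22 (limma adjusted p = 0.096), and FBN1, the fibrillin of mature microfibrils, was at 0.08 (limma adjusted p = 0.6). Of the 2 FBN1 probes, 1 was dim (mean 2.18, the other 5.14) and had a correlation of only 0.27 with their mean. FBN1 did not pass with its brightest probe alone either. Among the 10 elastic fibre and cross-linking genes, FBLN7, a fibulin that binds cell surfaces, was the other one that fell (-0.62, limma adjusted p = 0.033), and LOXL1, a cross-linking enzyme of elastic fibres, was at -0.56 with a limma adjusted p of 0.056.

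The FACIT collagens, which decorate fibrils without forming their own, had 4 of 6 measured members lower and none higher, with a median change of -0.77. COL21A1 fell from 6.65 ± 0.19 to 5.51 ± 0.28 (n = 4 units each), by 1.14 on the log2 scale (limma adjusted p = 0.0038). Its younger units were between 6.38 and 6.83 and its older ones between 5.25 and 5.89, with no overlap. COL16A1 fell by 0.86 (limma adjusted p = 0.0039), from units between 10.79 and 11.35 to units between 10.19 and 10.34. COL9A2, a chain of the cartilage collagen type IX, fell by 0.86 (limma adjusted p = 0.023), and COL14A1, a collagen of dense connective tissue, by 0.69 (limma adjusted p = 0.014). The call of COL9A2 was lost with an offset of 50 (-0.45, limma adjusted p = 0.062) and with its brightest probe alone (-0.21, limma adjusted p = 0.31). COL9A1 and COL22A1 did not pass the test.

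Among the laminins, LAMC1, the gamma chain present in most laminin trimers, had the smallest adjusted p of the 61 genes. Its units were at 10.80, 10.76, 10.59 and 10.65 in the younger period and at 10.12, 9.94, 9.92 and 10.01 in the older one. The periods were separate and each was tight, and in 6 of 7 tissues all older samples lay below all younger ones. The change was -0.70 ± 0.07 (SE), or 1.63-fold, with a limma adjusted p of 0.002. LAMB1, a beta chain of the same trimers, fell by 0.36 (limma adjusted p = 0.027), whereas LAMB3, a beta chain of the laminin under surface epithelia, rose by 0.42 (limma adjusted p = 0.013). The change of LAMB3 was 1.27 in spleen and 1.2 in bone marrow. Without bone marrow the mean change was 0.28, with a limma adjusted p of 0.071. Of 10 laminin chains measured, 2 fell, 1 rose and 7 did not pass. None of the 3 basement membrane collagens measured, COL4A3, COL4A5 and COL15A1, passed the test in limma, and none had an unadjusted p under 0.05. COL15A1 was well above background in 0 and COL4A3 in 6 of 72 samples, so little can be seen of either. Their median change was -0.05.

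All 5 proteoglycans had negative changes, of which 3 passed. VCAN, the large hyaluronan-binding proteoglycan of loose and developing matrix, fell from 5.96 ± 0.17 to 5.38 ± 0.05 (n = 4 units each, limma adjusted p = 0.0061). BGN fell by 0.44 (limma adjusted p = 0.022) and FMOD by 0.47 (limma adjusted p = 0.047), both of them fibril-binding proteoglycans. FMOD was the weakest of the 21 calls and missed the threshold in 15 of 19 other ways of analysing the data. DCN, at -0.32, did not pass (limma adjusted p = 0.086), and its probes disagreed, since 2 lay near background and the other 2, named on the array as prone to cross-hybridize, did not. Among the 7 adhesive and matricellular genes, POSTN, a secreted protein of periosteum and healing tissue, fell by 0.65 (limma adjusted p = 0.013). SPARC, which binds collagen, fell by 0.31 (limma adjusted p = 0.015), but only 5 of 28 younger and 1 of 28 older samples were well above background. FN1, fibronectin, was at -0.31 and did not pass (limma adjusted p = 0.092). It did pass in some other ways of analysing the data, among them with its brightest probe alone and with slide as a covariate.

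Of the 10 other collagens, COL6A3, a chain of the beaded-filament collagen type VI, fell by 0.46 (limma adjusted p = 0.015), and COL23A1, a membrane-bound collagen, rose by 0.34 (limma adjusted p = 0.03). COL4A3BP, which is not a matrix protein, rose by 0.33 (limma adjusted p = 0.029). Of the 17 genes that fell, 8 had a lower mean in all 7 tissues and 15 in 6 or 7 of them. The 17 were called on the mean of the same 7 tissues, so these counts are partly fixed by that choice. Without bone marrow, 19 of the 21 calls remained, FMOD and LAMB3 were lost, and LOXL1 was added. Without the 1-week female or without the 1-week male, 12 of the 21 calls remained, 11 lower and 1 higher, and the same 9 genes were lost in both cases, among them BGN, COL9A2 and FMOD.

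**Figure D2:**
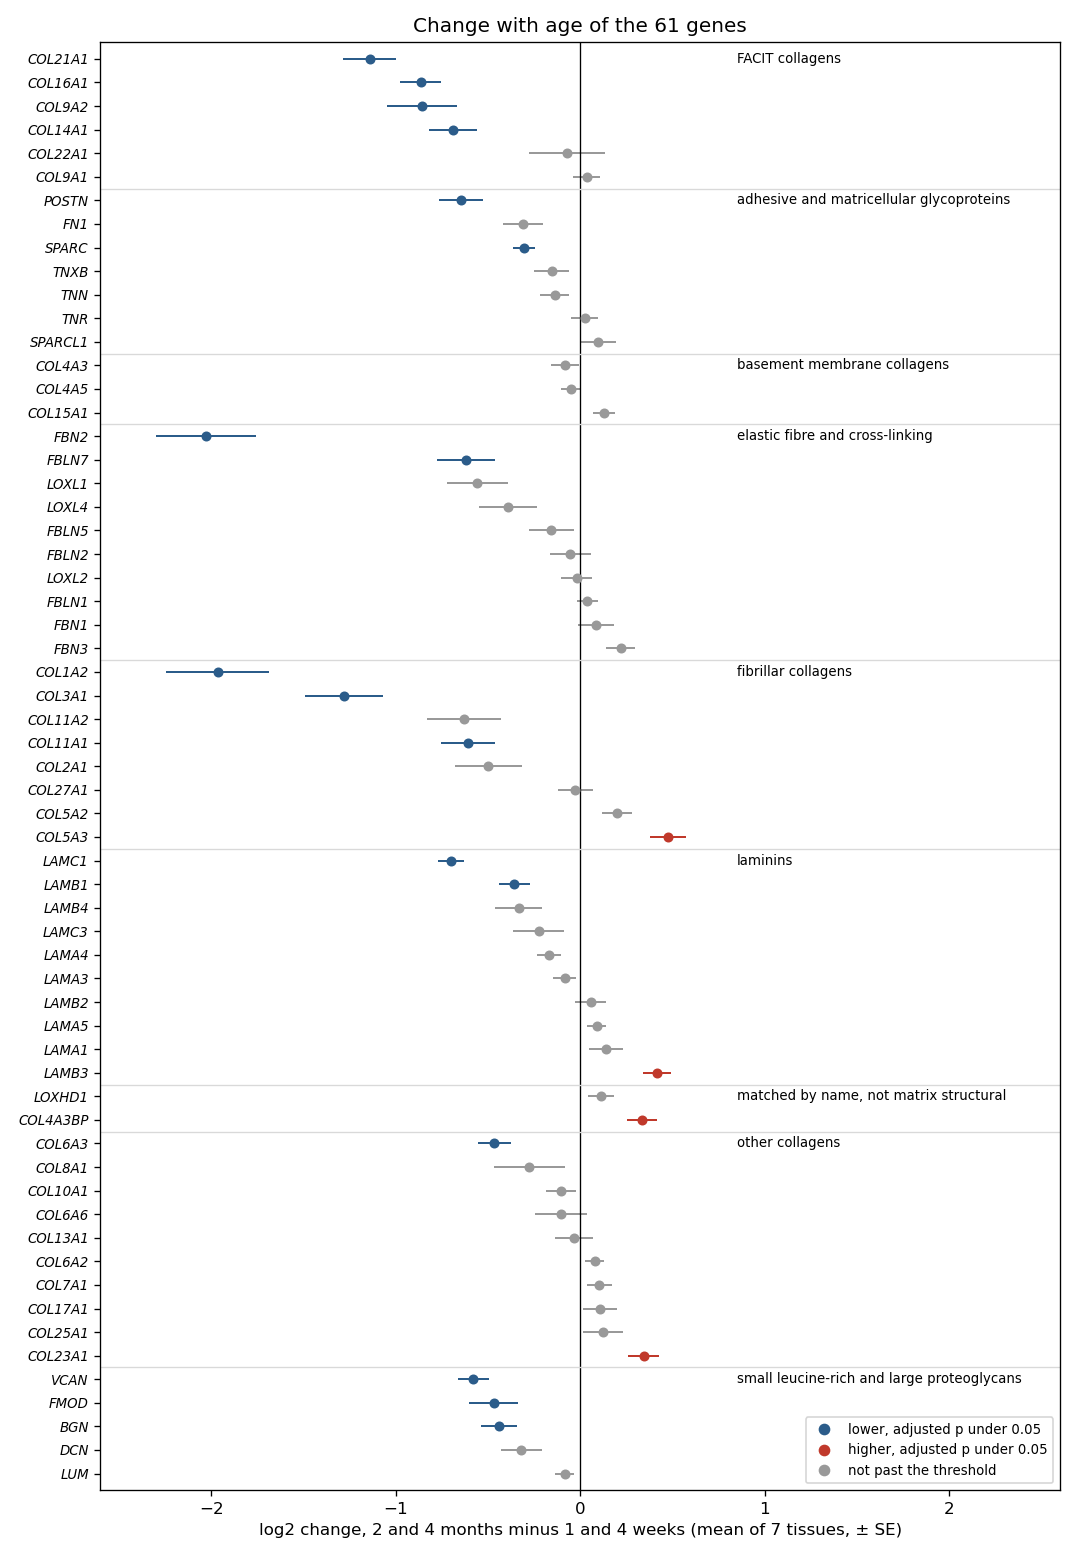
Log2 change with age of each of the 61 genes, 2 and 4 months minus 1 and 4 weeks, as the mean of 7 tissues (points) with the standard error (bars), grouped by role and colored by the call. FBN2 at -2.03 and COL1A2 at -1.96 lie farthest to the left, and the 4 genes that rose lie between 0.33 and 0.48.

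Genes that make and receive this matrix were set beside it. Of 14 collagen-processing genes measured, 4 fell and 1 rose. P4HA3 and P4HA1, which hydroxylate collagen prolines, fell by 0.88 and 0.33, PCOLCE, an enhancer of procollagen cleavage, fell by 0.56, and LEPREL2, another prolyl hydroxylase, rose by 0.31. The median of this list was -0.04, close to that of all genes. Of 20 matrix receptors, 5 fell and 2 rose. ITGB1, the beta subunit shared by most collagen and laminin receptors, fell by 0.50, and CD44, the hyaluronan receptor, rose by 0.47. Of 30 other matrix glycoproteins and proteoglycans, 5 fell and 3 rose. ASPN, a relative of decorin, fell by 1.18, HAPLN1, which links hyaluronan to proteoglycans, by 1.03, and NID2, which joins laminin to collagen IV networks, by 0.73. Among transcripts that carry only an accession on the array, 5 could be tied to further matrix genes, and of these LOX, the founding lysyl oxidase, fell by 1.01 (limma adjusted p = 0.0052), while COL5A1, TNXB, TNC and COL19A1 did not pass.

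Cell type markers moved as well. Of 7 fibroblast markers measured, 4 fell and none rose (SFRP2 by 1.14, DPT by 0.63, TWIST2 by 0.50 and FAP by 0.36), with a median of -0.36. Of 7 genes of dividing cells, 4 fell and none rose (TOP2A by 1.85, CCNB2 by 1.26, BIRC5 by 1.03 and CCNA2 by 0.91), with a median of -0.91. None of 6 smooth muscle, 4 endothelial, 4 cartilage or 8 meningeal and choroid plexus markers passed the test, and of 8 bone markers RUNX2, a transcription factor of osteoblasts, rose by 0.36. RUNX2 went from between 4.56 and 5.99 to between 6.46 and 6.77 in spleen. In bone marrow it was between 6.58 and 8.01 and then between 7.02 and 8.20. There, 7 of the 8 bone markers had a negative change, with a median of -0.84, and none passed. Among lymphoid markers, CD3E of T cells rose by 1.46, and none fell. The part of these cells in the matrix changes was not tested.

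Within single tissues, 35 changes passed the test, 31 of them lower and 4 higher, in 23 genes. COL1A2 fell in 5 tissues, FBN2 in 4, COL3A1 in 3 and LAMC1 in 2. Kidney had 13 calls (8.41% of all genes changed there), spleen 7 (3.09%), liver 6 (1.8%), cerebellum 5 (2.27%), cortex 3 (1.69%) and bone marrow 1 (0.793%), each with 4 older against 4 younger samples. Hypothalamus had none, and no gene on the whole array passed there (0% called by limma). At an unadjusted p under 0.05, 16 of the 61 genes (26.2%) differed in hypothalamus, beside 9.54% of all genes. COL1A2 in hypothalamus went from between 8.74 and 9.19 in the younger samples to between 5.86 and 7.37 in the older ones, a change of -2.59 without overlap and with a limma adjusted p of 0.12.

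In kidney, FBN2 was at 8.50 and 8.89 at 1 week, 6.85 and 7.09 at 4 weeks, 4.90 and 4.11 at 2 months, and 4.17 and 3.7 at 4 months. Both samples lay below both of the age before at 4 weeks and at 2 months, and 2 of the 4 older samples were still well above background. The log2 change of -3.62 ± 0.45 (SE), or 12.3-fold, had a limma adjusted p of 0.0048, and with an offset of 50 it was -2.06. COL16A1 was between 11.91 and 13.13 in the younger kidneys and between 9.88 and 11.17 in the older ones (-2.17, limma adjusted p = 0.0075). COL1A2 fell by 2.01 (limma adjusted p = 0.023), COL3A1 by 1.95, COL21A1 by 1.81 and COL8A1 by 1.62. LAMC1, a chain of the glomerular and tubular basement membranes, fell by 1.32 (limma adjusted p = 0.016), from 12.18 and 12.21 at 1 week to 10.66 and 10.14 at 4 months. FN1 fell by 1.06. FBN3 rose by 0.53 and COL4A3BP by 0.72. COL11A1 and LUM passed in kidney too, but neither was well above background in any of the 8 samples, and COL6A3 passed although its periods overlapped. The fibroblast markers had mean levels between 6.14 and 7.42 in the younger and between 6.07 and 6.53 in the older kidneys, and 4 of 7 genes of dividing cells fell there. The lymphoid markers, of which 3 of 5 rose, went from between 5.96 and 6.14 to between 6.42 and 7.08, and 2 of 4 neutrophil granule markers rose. Their part in the kidney changes was not tested. Leaving out single samples left 4 to 13 calls in kidney, with 4 without the 1-week female or without the 4-month male.

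In spleen, POSTN was at 12.98 and 13.92 at 1 week and 11.82 and 11.81 at 4 weeks, then at 9.55 and 10.03 at 2 months and 9.67 and 9.87 at 4 months. It fell by 2.85 on the log2 scale, or 7.22-fold (limma adjusted p = 0.017). In the other 5 tissues apart from bone marrow, POSTN stayed between 8.26 and 9.76, close to the older spleens, so that the younger spleens stood apart. FBN2 in spleen was between 5.81 and 7.12 in the younger samples and between 3.28 and 4.11 in the older ones, which were not well above background (-2.83, limma adjusted p = 0.0057), and with an offset of 50 its change was -1.14. COL16A1 fell 4-fold (limma adjusted p = 0.041), from 13.07 and 13.06 at 1 week to 10.28 and 10.16 at 4 months. The smaller changes were in COL9A2 (-1.36), COL1A2 (-1.34), FBLN7 (-1.17) and LOXL4 (-1.15). In the same spleens the neutrophil granule markers had mean levels of 9.51 and 10.20 at 1 week, 6.90 and 7.55 at 4 weeks and between 6.22 and 6.91 later. The genes of dividing cells were at 8.56 and 8.71 at 1 week and between 6.17 and 7.16 after that. No gene of these 2 lists passed the test in spleen. The fibroblast markers went from between 7.23 and 8.25 to between 6.86 and 7.08. Of these 7 markers 3 fell, only these 3 had a negative change, and the median change of the list was 0.097. The lymphoid markers went from between 8.26 and 9.62 to between 9.90 and 10.05, and 1 of 5 rose. Their part in the spleen changes was not tested. Leaving out single samples left 1 to 7 calls in spleen, with 1 without the 2-month or without the 4-month female.

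In liver, FBN2 was between 5.60 and 6.44 in the younger samples and between 2.34 and 4.52 in the older ones, of which 1 was well above background (-2.63, limma adjusted p = 0.019, and -0.89 with an offset of 50). COL1A2 fell by 2.16 (limma adjusted p = 0.048) and COL3A1 by 1.79 (limma adjusted p = 0.043), with the periods separate for both. COL14A1 (-1.31), COL21A1 (-1.24) and BGN (-0.99) were the others that fell. In these livers the fibroblast markers went from between 6.46 and 6.52 to between 5.80 and 6.32, the genes of dividing cells from between 6.46 and 7.16 to between 5.05 and 5.76, and the neutrophil granule markers from between 7.27 and 9.27 to between 6.53 and 7.03. No marker of these 3 lists passed the test in liver, and their part in the liver changes was not tested. Leaving out single samples left 0 to 11 calls in liver, with 0 without either 1-week sample, the 2-month male or the 4-month male, and 11 without the 2-month female.

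In cerebellum, COL1A2 fell by 2.42, or 5.37-fold (limma adjusted p = 0.023), COL3A1 from 6.69 to 5.19 (limma adjusted p = 0.036) and COL11A2 by 1.05 (limma adjusted p = 0.027). In 16 other ways of analysing the data, these calls were lost 6 times for COL1A2, 9 times for COL3A1 and 6 times for COL11A2. COL11A2 has 3 probes, and the brightest (mean 9.46, the others 6.17 and 5.94) had a correlation of only 0.27 with their mean. VCAN, which in brain belongs to the matrix around cells and axons, was between 6.39 and 6.79 in the younger and between 5.61 and 5.99 in the older cerebella (-0.73, limma adjusted p = 0.031). COL27A1, a fibrillar collagen known from cartilage, rose from between 5.84 and 6.53 to between 6.69 and 7.14 (0.74, limma adjusted p = 0.05, which passed before rounding). This call was lost in 11 of 16 other ways of analysing the data, and the VCAN call in 6. COL27A1 and VCAN were measured only by probes named as prone to cross-hybridize. In cortex, COL1A2 fell by 1.91 (limma adjusted p = 0.039), FBN2 at least 2.33-fold (limma adjusted p = 0.041) and LAMC1 by 0.70 (limma adjusted p = 0.02). The FBN2 call in cortex was lost in 11 of 16 other ways of analysing the data, and its change was -0.31 with an offset of 50. The genes of dividing cells had means between 5.04 and 5.74 in the younger and between 4.37 and 5.09 in the older cerebella (1 of 7 fell), and between 4.85 and 5.15 and then 4.21 and 4.59 in cortex (2 of 7 fell). The endothelial markers went from between 4.16 and 4.27 to between 3.83 and 4.07 in cerebellum, where 1 of 4 endothelial and 1 of 6 smooth muscle markers fell. The median change of the 6 smooth muscle markers there was 0.049. Their part in the brain changes was not tested. In bone marrow, COL6A6, a chain of collagen VI, was the 1 gene that passed. It was between 4.53 and 5.91 in the younger samples and between 6.44 and 7.74 in the older ones, a rise of 1.88 ± 0.34 (SE) or 3.68-fold (limma adjusted p = 0.043). All 4 older samples were above all younger ones. Leaving out single samples left 0 to 7 calls in cerebellum (0 without the 1-week male or either 4-month sample), 0 to 2 in cortex (0 without the 1-week male, either 2-month sample or the 4-month male) and 0 to 4 in bone marrow, where COL6A6 kept its call only without the 4-week female or without the 2-month male.

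**Figure D3:**
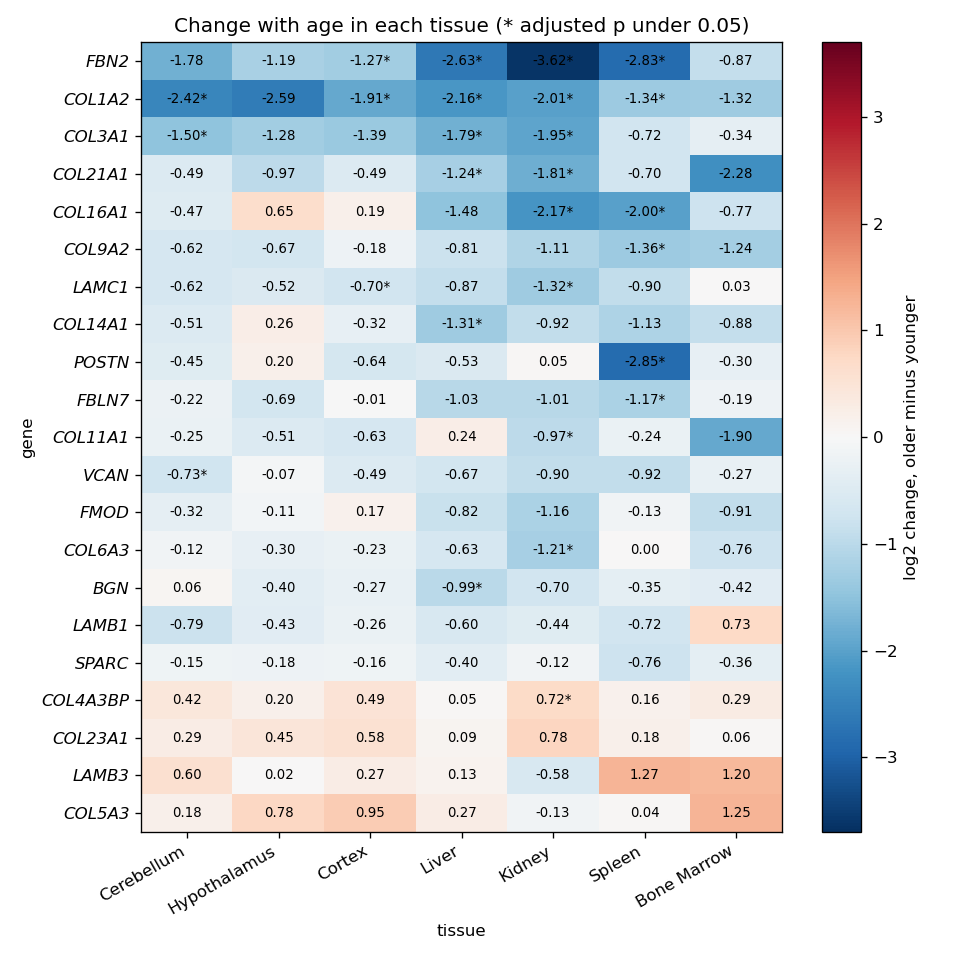
Log2 change with age (older minus younger, 4 samples each) of the 21 genes called over 7 tissues, by gene and tissue, blue for lower and red for higher, with a star where the change passed the test in that tissue. FBN2 in kidney stands at -3.62, and the COL1A2 line is blue in every tissue, from -1.32 in bone marrow to -2.59 in hypothalamus.

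Whether the change differed between organs (liver, kidney, spleen and bone marrow) and the 3 brain regions was tested directly. None of the 61 genes passed in limma, against 1.89% of all genes, and 20 of the 61 (32.8%) had an unadjusted p under 0.05, beside 19.4% of all genes. COL16A1 came closest, at -1.61 in organs and 0.12 in brain, a difference of -1.73 ± 0.38 (SE) with a limma adjusted p of 0.051. FBN2 was at -2.49 in organs and -1.41 in brain (difference -1.07, limma adjusted p = 0.085). COL1A2 was lower in both, at -1.71 in organs and -2.31 in brain (difference 0.60, limma adjusted p = 0.15). POSTN differed by -0.61 (limma adjusted p = 0.084), a value carried by spleen, where its change was -2.85 while that of the other 3 organs was between -0.53 and 0.05. Since bone marrow spread widely, the same test was run without it, a choice made after seeing the data. Then 3 genes passed, COL16A1 (difference -2.01), FBN2 (-1.61) and COL11A2 (0.75), with limma adjusted p-values between 0.044 and 0.05. The share of all genes that passed without bone marrow is not given here, so these 3 cannot be set beside it. Leaving out single units gave 0 to 3 genes, with 3 without the 4-week female and 2 without the 4-week male.

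Levels, in contrast to changes, separated organs from brain for 10 genes at 4-fold or more. In organs 8 genes were higher (4.81% of all genes were), and in brain 2 were (6.14% of all genes), each in all 8 units. COL3A1 was at 10.98 in organs and 6.27 in brain, or 26.2-fold apart, and COL1A2 at 11.65 and 7.66, or 15.9-fold. FBLN5, which organizes elastic fibres, was 8.01-fold higher in organs. LOXL4, a lysyl oxidase relative, was at least 8.95-fold and COL6A6 at least 5.85-fold higher, since neither was well above background in any of the 24 brain samples. TNR, the tenascin of the nets around neurons, was at 6.97 in brain and 3.07 in organs, where 6 of 32 samples were well above background, and was 14.9-fold higher in brain. COL25A1, a membrane collagen of neurons, was 4.34-fold higher in brain, with 9 of 32 organ samples well above background. All 10 had limma adjusted p-values of 3.4e-07 or smaller. With a background offset of 50 all kept their direction and passed the test, but only 3 of them, COL3A1, COL1A2 and FBLN5, remained 4-fold apart.

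By single tissue, 25 of the 61 genes were at least 4-fold above the mean of the other 6 tissues in at least 1 tissue, over the 56 samples up to 4 months. With an offset of 50, which shrinks differences of dim genes, there were 0 such genes in each brain region, 3 in spleen and 5 in bone marrow. Bone marrow had 11 such genes (4.22% of all genes), spleen 6 (3.1%), liver 5 (4.6%), kidney 4 (3.79%), and cerebellum (3.75%), hypothalamus (3.9%) and cortex (4.62%) had 2 each. In bone marrow, COL1A2 was 20.7-fold and POSTN 17.6-fold above the other tissues, and COL11A1 was 12.3-fold above. COL8A1, a short-chain collagen of vessel walls, was 11.9-fold above and VCAN 7.88-fold, and for both genes all 8 marrow samples were above all 48 samples of the other tissues. The range over the 8 marrow samples was wide for COL1A2, from 11.14 to 15.97, and narrow for COL8A1, from 9.69 to 10.91.

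In spleen, COL6A6 was at 8.93 ± 0.99 (SD, n = 8), 36.8-fold above the mean of the other tissues, of whose 48 samples 10 were well above background. LOXL4 was at 8.21 ± 0.68 and 11-fold above, with 23 of 48 other samples well above background, and COL3A1 was 8.54-fold above. In kidney, FBLN5 was at 11.91 ± 0.30 (n = 8) and 17.8-fold above. LAMB1 was at 11.97 ± 0.28 and 9.5-fold above, and LAMC3, a less common gamma chain, at 9.96 ± 0.33 and 8.64-fold above. For both laminins all 8 kidneys were above all 48 other samples. LAMC3 had higher means in ovary (11.99, n = 4) and testis (10.54, n = 5), which were outside this comparison. In liver, FN1, which the liver secretes as plasma fibronectin, was at 9.48 ± 0.37 (n = 8) against at most 6.59 in any sample of the other 6 tissues up to 4 months, or 21.2-fold above their mean. The 4 FN1 probes differed in brightness, with means of 3.62, 3.92, 3.60 and 11.00 over the 72 samples. Each of them followed the gene mean, with correlations between 0.95 and 0.98. LAMB3 was 9.19-fold higher in liver, again with all 8 livers above all other samples, and COL2A1, the cartilage collagen, was 5.57-fold higher, although both of its probes are named as prone to cross-hybridize.

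Among brain regions, COL27A1 was at 6.48 ± 0.46 (n = 8) in cerebellum and at most 4.62 in any sample of the other 6 tissues up to 4 months, or 6.43-fold above their mean. TNR was above the other tissues in all 3 regions, by 7.34-fold in cortex, 6.25-fold in hypothalamus and 4.82-fold in cerebellum, and the means of cortex (7.21 ± 0.18) and hypothalamus (7.01 ± 0.32) lay within their spread. COL25A1 stood out in hypothalamus, at 6.79 ± 0.66 and 6.53-fold above. COL22A1, a collagen of tissue junctions, was 6.08-fold above in cortex and 6.6-fold in bone marrow, where its 8 samples ran from 4.29 to 9.19.

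**Figure D4:**
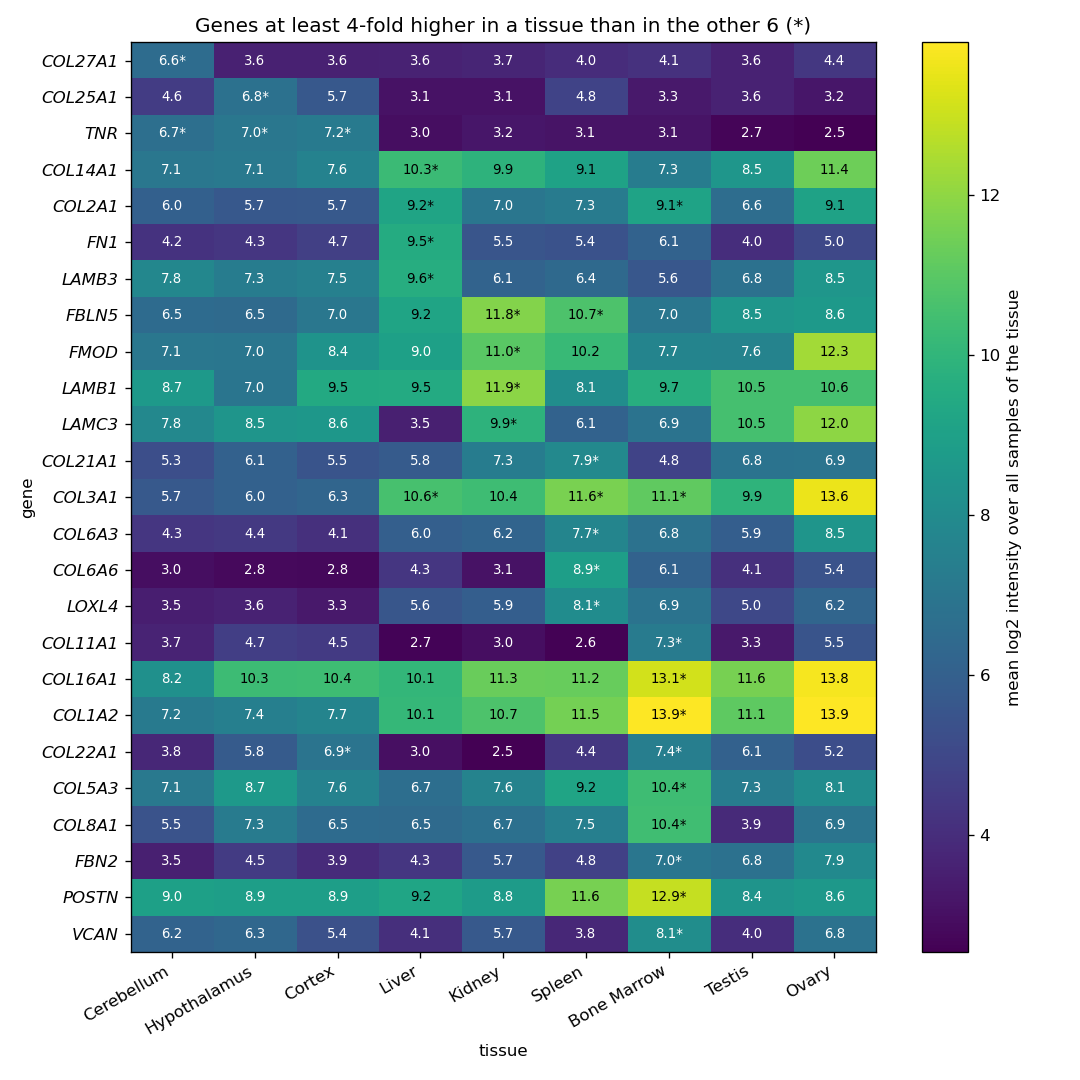
Mean log2 intensity over all samples of a tissue, all ages included, for the 25 genes that were at least 4-fold higher in 1 of 7 tissues than in the other 6 (stars), with testis and ovary shown for comparison and not tested. Each line is to be read along the tissues, since brightness differs between probes of different genes. COL27A1 is high in cerebellum alone among the 7 tissues, and TNR is high in the 3 brain regions.

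Males and females were compared over the 4 ages up to 4 months. None of the 61 genes differed in limma (0.0211% of all genes did), and 6 (9.84%) had an unadjusted p under 0.05, beside 4.14% of all genes. COL1A2 was 0.53 higher in males than in females and COL2A1 0.38 higher, each at 4 of 4 ages, both with a limma adjusted p of 1.

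Testis had 1 male at each age, so its differences were not tested. From 1 week to 2 years, 20 of the 61 genes were at least 4-fold lower (4.6% of all genes). There was 1 gene that was higher, beside 1947 of the 23722 genes tested. The median difference was -0.86 against -0.23 for all genes. COL9A2 was at 12.46, 10.42, 6.43, 6.63 and 6.2 from the youngest to the oldest male, 76.7-fold lower at the end. COL3A1 went from 13.09 through 11.84, 9.28 and 7.69 to 7.77, or 39.9-fold lower. COL1A2 was at 13.74, 13.35, 10.51, 9.15 and 8.61, or 35.1-fold lower. FMOD was 24.6-fold and COL14A1 19.6-fold lower.

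The step from 4 weeks to 2 months held 9 falls of 4-fold or more (1.52% of all genes), the largest in COL9A2 (15.8-fold), FMOD (9.58-fold) and COL1A2 (7.16-fold). LOXHD1 was the 1 gene higher after this step, at least 4.85-fold, from 2.52, not well above background, to 5.23. Of the 23722 genes tested, 1670 were 4-fold higher after this step. From 2 months to 2 years no gene of the set differed 4-fold. Few of the 23722 genes tested did, 43 lower and 55 higher, so this absence is not particular to the set. Over the same males, the fibroblast list had means of 7.64, 6.56, 5.29, 5.01 and 5.08, and the testis list, which holds the spermatid gene PRM1 and the germ cell gene DDX4, was between 8.03 and 8.15 up to 4 weeks and between 11.07 and 11.27 after that. The part of a changing cell makeup in these falls was not tested.

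Ovary, measured in 1 female per age below 2 years, had 1 gene that was 4-fold lower at the end, beside 513 of the 23722 genes tested. COL1A2 stayed between 13.72 and 13.99, and BGN was at 14.23 at 1 week and 13.75 at 4 months. From 1 week to 4 months, 3 genes were at least 4-fold higher (1.2% of all genes). VCAN was at 5.83, 6.29 and 5.87 at the first 3 ages and at 9.30 at 4 months, an 11-fold difference that lies in the last sample alone. COL9A2 was at 10.16, 8.85, 8.83 and then 12.37, 4.63-fold higher than at 1 week, again through the last female. LOXL4 was 4.51-fold higher, and COL22A1 was 6.23-fold lower, at 6.34, 6.76, 4.04 and 3.7.

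**Figure D5:**
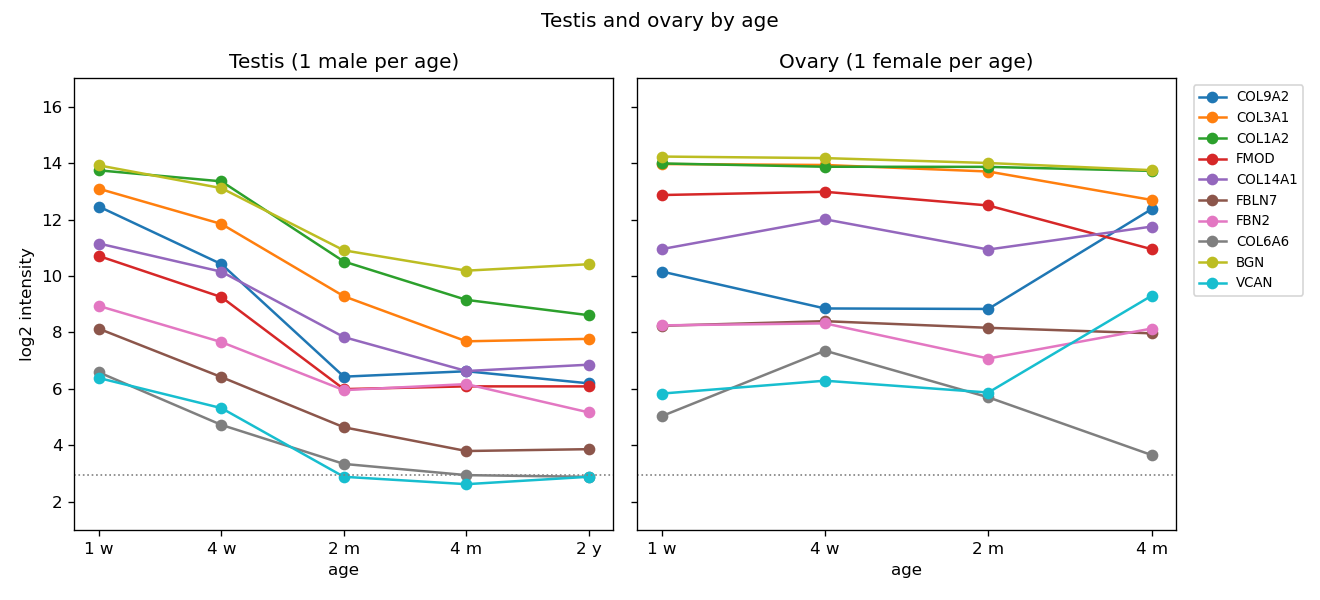
Log2 intensity by age in testis (left, 1 male per age) and ovary (right, 1 female per age) of the 10 genes with the largest fall in testis from 1 week to 2 years, with the median detection limit of 2.95 dotted. COL9A2 in testis drops from 10.42 at 4 weeks to 6.43 at 2 months, and COL6A6 drops more before 4 weeks (6.59 to 4.73), whereas in ovary COL1A2 stays between 13.72 and 13.99.

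The 2-year male was set against the 4-month male in each tissue, again without a test. No gene of the set differed 4-fold in cerebellum, cortex or kidney. Such differences were rare there among all 23722 genes tested, so their absence is not particular to the set. The lower and higher counts were 38 and 27 in cerebellum, 40 and 19 in cortex, and 37 and 40 in kidney. In hypothalamus, COL3A1 was at least 14.2-fold lower and COL21A1 10.9-fold higher. The 4-month female, however, was already at 4.93 for COL3A1. COL21A1 already ran from 4.12 to 7.80 over the 8 hypothalamus samples up to 4 months, with no order in age. LAMB3 in liver was at 6.96 at 2 years, 6.51-fold below the 9.66 of 4 months and below all 8 earlier livers, which were between 9.34 and 10.35. In spleen, POSTN was at 14.60, which was 26.5-fold above the 9.87 of the 4-month male and above both 1-week spleens, and LAMC3 was 7.86-fold lower. The 4-month male, however, had the highest LAMC3 of the 9 spleens, which ran from 4.84 to 8.06, and the 2-year male was not the lowest. In the 2-year spleen the fibroblast markers were at 7.91 (6.86 to 7.08 at 2 and 4 months), the smooth muscle markers at 9.49 (7.76 to 8.86 in the other spleens) and the genes of dividing cells at 5.49 (at least 6.17 in the others), and their part was not tested.

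Bone marrow differed most at 2 years, with 5 genes at least 4-fold higher (2.41% of all genes) and 2 lower. Among all 23722 genes tested, 814 were 4-fold lower and 571 higher in this comparison. Both counts were the largest of any tissue, so this ranking is not particular to the set. LAMC3 was at 10.89 at 2 years and between 5.48 and 7.39 in the 8 earlier samples, FMOD was at 9.51 against 6.90 in the 4-month male and 10.26 in the 1-week female, and SPARC was at 5.77 and at most 3.99 before. FBLN7 was 4.86-fold and LAMC1 4.67-fold higher. POSTN was at 8.26, 15.9-fold below the 12.25 of the 4-month male, and below all other marrow samples. COL6A6 was at 5.33, 5.31-fold below the 4-month male but within the 4.53 to 5.91 of the 1- and 4-week samples. COL1A2, at 15.62, was close to its 1-week levels. In this sample the neutrophil granule markers were at 6.79, the genes of dividing cells at 5.42 (7.99 to 8.65 in the others) and the smooth muscle markers at 8.73 (6.25 to 7.55 in the others), and their part in the differences was not tested. The bone markers, at 8.50, lay within the range of the other marrow samples (6.10 to 8.86). In the renal pelvis of the same male, FBLN7 (6.37-fold), LAMB3 (5.62-fold) and BGN (4.26-fold) were higher than in the kidney (0.97% of all genes were). None was 4-fold lower, beside 328 of the 23722 genes tested.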

How the data were processed

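The arrays carry probes designed on a predicted minipig transcriptome, and genome coordinates are not given in the sources used here. The authors deposited 1 scanner output per array from Agilent Feature Extraction 11.5.1.1, with raw median intensities that are not normalized between arrays, and a table of log2 values, which was used as an alternative only. Here the raw intensity was background-corrected (normexp, offset 0) and quantile-normalized in limma 3.58.1 under R 4.3.3, spots marked as outliers (10 to 590 per array) were left out, and spots, probes and then genes were averaged on the log2 scale. The 8 kidney repeats, counted as 1 sample, had a median SD of 0.116. The number of arrays limits the precision.

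Tests were limma fits over all 23722 genes with Benjamini-Hochberg adjustment. An offset near 0 spreads dim values, and quantile normalization removes differences in overall brightness. Where a group was not well above background on any array, the fold is given as "at least", with that group's signal on each array taken as its own or, if higher, the dimmest signal well above background there. The fits were tested on simulated data. Genes and lists were chosen with earlier results of these data known. COL1A2 and FBN2 were always named; otherwise genes past the threshold were named by size of change (up to 25 over 7 tissues, 3 per tissue and direction, 5 for organs against brain and for samples without replicates), and others were added after their values were seen. Alternatives changed the signal column, offset, normalization, probe choice, filter, age coding and unit of replication.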

Additional observations from a re-analysis of the deposited data

Results flagged for a closer look

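In 4 of 112 groups of 4 samples, 1 sample stood far from the other 3, measured by its gap to the nearest of them as a share of the whole range. By chance about 5% of groups would do so. BGN over 7 tissues had the 4-week female at 12.92 against 13.29 to 13.35 in the other younger units (gap share 0.854). COL4A3BP had the 2-month male at 8.12 against 7.82 to 7.86 in the other older units (0.863). COL14A1 in the younger livers had the 4-week male at 11.35 and the others at 10.87 to 10.88 (0.984). COL8A1 in the younger kidneys had the 1-week male at 8.46 and the others between 7.26 and 7.32 (0.952).

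A pair of genes moved in opposite directions in different tissues without overlap of the periods. COL22A1 changed by -0.79 in kidney, where it was not well above background in either period, and by 1.09 in spleen. COL6A6 changed by -1.39 in kidney, where the older samples were not well above background, and by 1.88 in bone marrow. The difference between tissues was not tested in either case.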

How the results depend on the processing

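All 21 genes called over 7 tissues kept their direction under every alternative run. For the 7-tissue means, leaving out single units gave 11 to 22 lower and 1 to 4 higher genes, with 11 and 1 without the 1-week female and likewise without the 1-week male. In single tissues the ranges when 1 sample was left out were 0 to 7 for cerebellum (5 with all samples; 0 without the 1-week male or either 4-month sample, 1 without the 4-week male, 2 without the 1-week female), 0 to 1 for hypothalamus (0; 1 without the 4-week or the 4-month male), 0 to 2 for cortex (3; 0 without the 1-week male, either 2-month sample or the 4-month male, 1 without the 4-week male), 0 to 11 for liver (6; 0 without either 1-week sample, the 2-month male or the 4-month male, 2 without the 4-week male or the 4-month female, 11 without the 2-month female), 4 to 13 for kidney (13; 4 without the 1-week female or the 4-month male, 5 without the 2-month male, 7 without the 1-week male), 1 to 7 for spleen (7; 1 without either the 2-month or the 4-month female, 2 without the 2-month or the 4-month male, 3 without the 1-week male, 4 without the 1-week female or the 4-week male) and 0 to 4 for bone marrow (1; 4 without the 4-week female, 3 without the 2-month male, and 0 without any other sample). For the difference between organs and brain the range was 0 to 3 (3 without the 4-week female, 2 without the 4-week male). An offset of 50, which shrinks dim differences by construction, left 3 genes 4-fold higher in organs and 0 in brain, 0 in cerebellum, in hypothalamus and in cortex, 3 in spleen, 5 in bone marrow and 12 lower in testis from 1 week to 2 years. With that offset, changes with age passed for 2 genes in cerebellum, 2 in liver, 8 in kidney, 4 in spleen and 0 in bone marrow. The brightest probe gave 1 in cerebellum, 2 in liver, 0 in bone marrow and 6 higher in renal pelvis. The deposited table gave 3 in cerebellum, 5 in cortex, 1 in liver, 8 in kidney and 0 in bone marrow, and turned the change of LUM in kidney, a gene at background, to 0.0167. Median scaling gave 2 in liver and 10 higher in bone marrow at 2 years. A filter on dim genes gave 6 in cortex and 1 for organs against brain. Age as a rank gave 11 in cerebellum, 1 in hypothalamus, 10 in liver, 3 in bone marrow and 9 for organs against brain, and leaving out bone marrow, chosen after seeing the data, gave 3 for the last. Sex as a replicate block gave 2 in liver and 3 in spleen and kept 19 of the 21 calls over 7 tissues, without FBLN7 and FMOD. Samples of the same sex did not deviate together across ages (mean correlation between -0.01 and 0.06 in each tissue), so sex does not pair them. Slide as a covariate also kept 19 and a random block for the unit 20. Probes prone to cross-hybridize, left out after seeing the data for genes with another probe, changed none of the 21 calls. Of the results for single genes under all alternatives, 740 stayed on their side of the threshold, 292 lost it, 4 gained it and 1 changed sign. The cause was not tested. Dim genes such as SPARC, FBN2 after 4 weeks and COL11A1 are limited by signal over background.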

Other observations

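Some genes of the set had wide ranges within a tissue. COL22A1 in bone marrow ran from 4.29 to 9.19 over the 8 samples up to 4 months and was higher in the male at each of the 4 ages, with 4.40 in the female and 8.74 in the male at 4 weeks. COL21A1 in hypothalamus ran from 4.12 to 7.80, with neither sex higher at all ages. LAMC3 in the spleen was between 4.84 and 8.06, with the highest value in the 4-month male. COL2A1, COL9A1, COL27A1, FBLN1, TNXB and VCAN were measured only by probes that the array names as prone to cross-hybridize, so signal from related transcripts cannot be told apart from their own.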
